A study of Mus musculus with 24 samples.

Results

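Prrx1 and Prrx2 are paired genes on mouse chromosomes 1 and 2, and the data described here are the histone-mark peaks around them in 7 peak lists from embryonic forelimb buds and NIH3T3 cells. The members are all peaks that overlap the body of either gene or the 200 kb on either side of it in mm10. By this rule 875 of 368383 peaks were members, 386 in the Prrx1 window and 489 in the Prrx2 window. Prrx1 (ENSMUSG00000026586.16) is a gene of 68.6 kb on the minus strand at chr1:163245119-163313710, and its window is the 469 kb of chr1:163045119-163513710. Prrx2 (ENSMUSG00000039476.13) is a gene of 46.3 kb on the plus strand at chr2:30834972-30881251, and its window is the 446 kb of chr2:30634972-31081251. The pair was chosen by measured values, because the 5 Mb block of chromosome 1 that starts at 160 Mb, which holds Prrx1, has many H3K27ac calls made in Shh-/- limb buds and not in WT. The counts of such calls around Prrx1 are therefore given as a description, and nothing is drawn from them.

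Prrx1 and Prrx2 encode closely related homeodomain transcription factors that are expressed in the mesenchyme of the limb buds and face. Mice that lack both genes have more severe limb and skull defects than mice that lack Prrx1 alone, and a regulatory fragment of Prrx1 drives a Cre transgene widely used to recombine genes in limb mesenchyme. In the posterior limb bud, Sonic hedgehog keeps GLI3 from being cut into its repressor form, and in its absence GLI repressor is present across the bud. Acetylation of lysine 27 of histone H3 (H3K27ac) is found at active promoters and enhancers, dimethylation of lysine 4 (H3K4me2) at promoters and enhancers in active or poised states, and trimethylation of lysine 27 (H3K27me3) at genes silenced by Polycomb complexes.

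The limb samples were forelimb buds of Swiss Webster embryos at E10.5, with 32 to 35 somites and about 400000 cells per immunoprecipitation. H3K27ac and H3K4me2 were profiled in WT and in Shh-/- buds, which are null for Shh, and H3K27me3 was analysed here in Shh-/- buds alone. By the study's methods the controls called WT mixed wild-type and heterozygous littermates, and each sample pooled the forelimbs of several embryos, so that several cell types contribute to every list. NIH3T3 cells are mouse embryonic fibroblasts that can respond to Hedgehog ligands. They were profiled for H3K27ac with a different antibody from that used in the limb, using about 1000000 cells, after 48 h in low serum with 400 nM of purmorphamine, which activates the pathway at Smoothened, or with its solvent DMSO (control). The treatment labels of both NIH3T3 groups also carry the letters LIF, which the sources do not explain. Each list was called from 2 replicate libraries together against input, 24 libraries in 14 groups in all, of which 10 were inputs. No list therefore has a replicate, no difference between 2 lists can be set against the spread between replicates, and no test was made. The methods give only a minimum depth for all libraries, the reads behind each list are not in the values used here, and the 95% Wilson intervals given with shares cover the counting of peaks only.

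Promoter peaks were checked against the labelled tissue. All 10 markers of forelimb mesenchyme on a chosen list, which holds both Prrx genes, had a WT H3K27ac peak at a promoter, whereas 0 of 3 hindlimb markers, 0 of 6 ectoderm markers, 0 of 4 muscle precursor markers, 0 of 4 blood markers and 1 of 5 endothelial markers did. In Shh-/- buds the same count was 10 of 10 for forelimb mesenchyme, 1 of 3 for hindlimb (Tbx4) and 2 of 4 for muscle precursors (Pax3 and Lbx1), with 0 of 6 for ectoderm, 0 of 4 for blood and 1 of 5 for endothelium. Of 6 fibroblast markers, 3 (Col1a2, Fn1 and Vim) had such a peak in each genotype. Over all protein-coding genes the share was 43.8% in WT and 40.9% in Shh-/- buds. The part of the muscle precursor and hindlimb calls in the differences described here was not tested. All 6 fibroblast markers had a promoter peak in control and in purmorphamine-treated NIH3T3 cells, as did 7 of the 10 forelimb mesenchyme markers and 1 of 3 hindlimb markers. Ectoderm markers were at 0 of 6 in control and 2 of 6 with purmorphamine, endothelial markers at 0 and 1 of 5, and muscle precursor and blood markers at 0 in both. Their part in the NIH3T3 differences was not tested.

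6 sequences are shown for reference, and no comparison of peaks rests on them. They are the segment upstream of the Prrx1 start, on the gene's strand, and the central 300 bases of limb H3K27ac peaks outside promoters, on the plus strand of mm10. For each gene these are the best-ranked peak shared between WT and Shh-/- and the best-ranked Shh-/- only peak, and for Prrx2 also the best-ranked WT-only peak. They were read from the reference genome of that build, taking the deposited coordinates as counted from 1. Capitals mark matches to TAATTA, the core bound by many homeodomain proteins, or to CATCTG, an E-box bound by TWIST and HAND factors, on either strand.
Prrx1 promoter, chr1:163313711-163313900, minus strand: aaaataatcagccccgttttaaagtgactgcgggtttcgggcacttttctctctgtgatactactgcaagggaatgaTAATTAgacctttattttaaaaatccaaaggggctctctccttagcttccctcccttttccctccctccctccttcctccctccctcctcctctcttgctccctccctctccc
Prrx1 shared peak at -62.4 kb, chr1:163375925-163376224: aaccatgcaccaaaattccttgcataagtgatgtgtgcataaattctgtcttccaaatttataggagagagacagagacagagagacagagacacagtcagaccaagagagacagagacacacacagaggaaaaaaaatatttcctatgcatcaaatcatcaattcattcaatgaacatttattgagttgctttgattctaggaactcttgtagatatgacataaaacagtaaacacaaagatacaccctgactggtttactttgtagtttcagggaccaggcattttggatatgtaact
Prrx1 Shh-/- only peak at 113 kb, chr1:163200450-163200749: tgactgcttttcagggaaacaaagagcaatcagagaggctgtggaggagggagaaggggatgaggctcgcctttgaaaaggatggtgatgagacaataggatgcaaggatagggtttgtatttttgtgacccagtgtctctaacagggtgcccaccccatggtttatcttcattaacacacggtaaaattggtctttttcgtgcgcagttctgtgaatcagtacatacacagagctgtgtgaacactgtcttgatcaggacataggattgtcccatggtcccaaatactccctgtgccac
Prrx2 shared peak at -187 kb, chr2:30658325-30658624: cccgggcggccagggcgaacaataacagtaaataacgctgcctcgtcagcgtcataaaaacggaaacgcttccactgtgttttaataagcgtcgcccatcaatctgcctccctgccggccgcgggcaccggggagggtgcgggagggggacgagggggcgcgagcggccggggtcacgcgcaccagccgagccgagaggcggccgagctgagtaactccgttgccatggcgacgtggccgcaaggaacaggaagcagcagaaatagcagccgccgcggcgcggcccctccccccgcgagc
Prrx2 WT-only peak at 25.2 kb, chr2:30870100-30870399: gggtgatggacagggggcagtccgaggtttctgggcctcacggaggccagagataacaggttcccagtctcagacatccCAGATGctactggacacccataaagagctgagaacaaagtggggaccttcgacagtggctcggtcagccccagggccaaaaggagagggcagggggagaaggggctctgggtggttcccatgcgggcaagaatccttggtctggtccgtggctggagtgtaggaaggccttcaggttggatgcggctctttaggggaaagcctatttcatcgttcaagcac
Prrx2 Shh-/- only peak at -120 kb, chr2:30725350-30725649: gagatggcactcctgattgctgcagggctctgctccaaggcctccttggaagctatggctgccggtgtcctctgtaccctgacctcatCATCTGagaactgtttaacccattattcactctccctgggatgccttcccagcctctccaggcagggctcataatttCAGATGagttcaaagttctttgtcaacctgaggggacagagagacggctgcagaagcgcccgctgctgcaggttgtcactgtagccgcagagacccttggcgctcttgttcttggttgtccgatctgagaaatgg

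Distances are given in kb from a gene's start to the centre of a peak or region, negative upstream. For Prrx1 the outermost of 3 closely spaced annotated starts was used. Prrx2 has 2 annotated starts 10.1 kb apart, and distances are from the downstream start. The Prrx1 segment of 190 bases held 1 match to TAATTA. None of the 6 sequences held GACCACCCA, a core of the motif bound by GLI factors, or TGACAG, a core bound by MEIS factors. The shared peak shown is from the Shh-/- list for Prrx1 and from the WT list for Prrx2. For Prrx1 it is a Shh-/- peak of 6050 bp that overlaps 5 WT peaks, and its 300 bases lie mostly between WT peaks. The Shh-/- only peak of Prrx2 is 200 bp wide, so its 300 bases run past its edges. These are matches of letters and not bound sites.

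**Figure D1:**
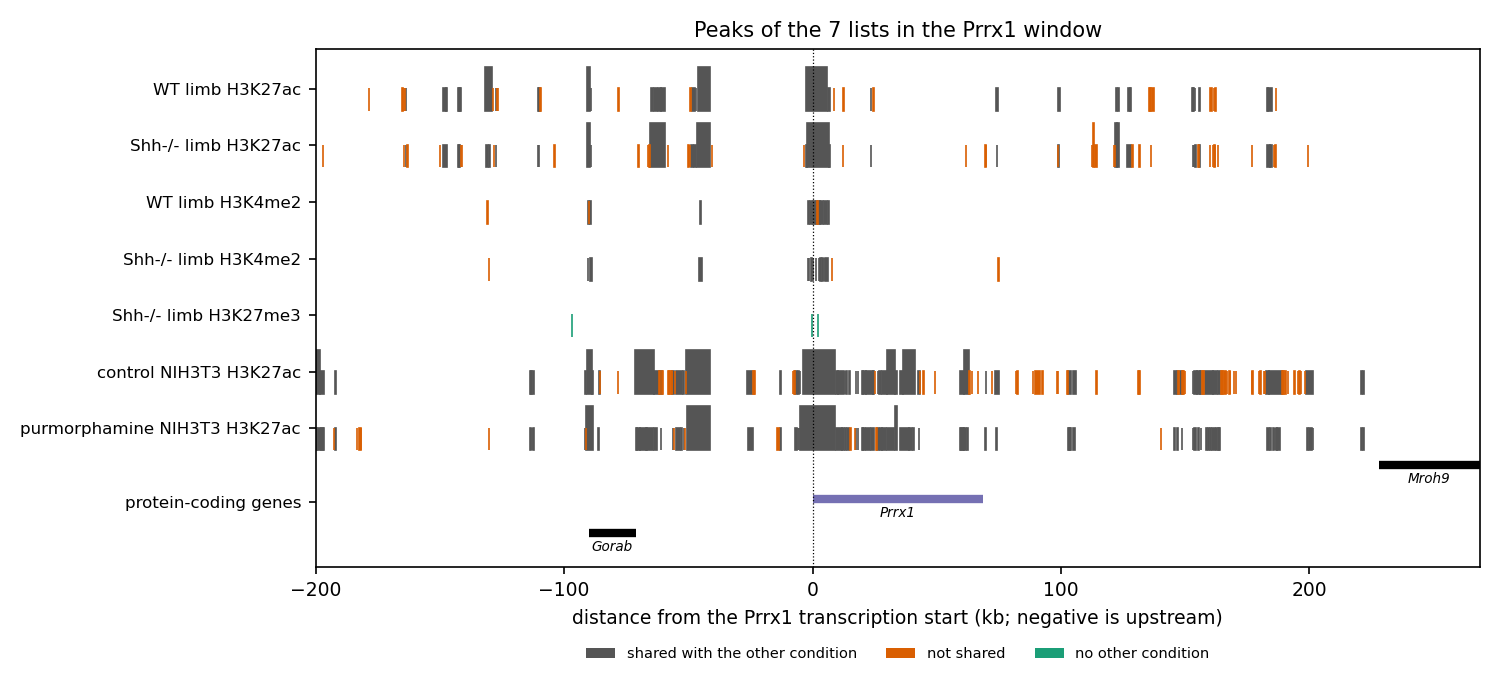
Peaks of the 7 lists (rows) in the Prrx1 window by distance from the Prrx1 start in kb, with protein-coding genes in the lowest row. Grey peaks overlap a peak of the list of the other condition, orange peaks do not and green peaks have no other condition; tall bars are the best-ranked 10% of a list, short bars the rest, and very narrow peaks are drawn wider than they are. The 8.60 kb peak at the start is matched in Shh-/- buds, and the control NIH3T3 row has 41 orange bars downstream of the gene against 1 in the purmorphamine row.

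H3K27ac around Prrx1 was dense in the limb and in NIH3T3 cells, while H3K4me2 was sparse. The NIH3T3 lists are the longer ones, with 91023 peaks in control and 87809 in treated cells against 49679 in WT and 43916 in Shh-/- limb buds, so their cover is read against other gene windows of the same list. In the Prrx1 window there were 55 WT and 70 Shh-/- H3K27ac peaks, covering 39.8 kb (8.49% of the window) and 42.9 kb (9.16%). Among 21938 windows of protein-coding genes drawn in the same way, 0.634% had more WT H3K27ac cover and 0.492% more Shh-/- cover. H3K4me2 covered 1.56% in WT with 14 peaks and 1.52% in Shh-/- with 17 peaks, and 48.1% and 44.8% of gene windows had more. H3K27ac stood near the top of the gene windows and H3K4me2 near their middle, in both genotypes. Control NIH3T3 cells had 126 H3K27ac peaks over 24.0% of the window, and purmorphamine-treated cells had 101 over 18.5%. Gene windows with more cover made up 0.287% in control and 1.06% in treated cells. H3K27me3 was limited to 3 peaks of 100 bp, each with a false discovery rate (FDR) over 0.05. Such peaks are common in that list. Of its 20830 peaks on chromosomes 1 to 19, X and Y, 10999 had an FDR over 0.05, and the median width was 150 bp.

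The Prrx2 window was likewise rich in H3K27ac. There were 60 peaks in WT, over 46.7 kb, and 64 in Shh-/- buds, over 48.5 kb (10.9% of the window), and 0.442% and 0.346% of gene windows had more cover. H3K4me2 was better represented than around Prrx1, with 42 peaks in WT (4.52%) and 40 in Shh-/- (4.37%), and 9.88% and 7.98% of gene windows had more. NIH3T3 cells had 129 H3K27ac peaks in control (26.6%) and 152 with purmorphamine (32.1%), and 0.191% and 0.169% of gene windows had more. Purmorphamine-treated cells thus had fewer H3K27ac peaks and less cover than control around Prrx1, and more of both around Prrx2. Median peak widths ran the other way, with 400 bp in treated and 300 bp in control cells around Prrx1 and 350 and 450 bp around Prrx2. The single H3K27me3 domain of the Prrx2 window was a pair of peaks at -43.3 and -44.0 kb, at the promoter of 1700001O22Rik, the wider of which spanned 750 bp with rank 3278 and log2 ratio 3.09.

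The start of Prrx1 lay in a very strong peak of every H3K27ac list. A promoter was taken as 2 kb before to 1 kb after an annotated start, and peaks are compared by their deposited rank, where rank 1 is the strongest, or by rank as a percent of the list. The WT limb peak at the Prrx1 promoter was 8.60 kb wide with rank 223 (0.449% of the list) and a log2 ratio of ChIP to input of 6.61, and the Shh-/- peak was 8.95 kb wide with rank 53 (0.121%) and a log2 ratio of 6.73. Of the 9603 genes with a WT promoter peak 218 had a better rank than Prrx1, and of the 8968 in Shh-/- buds 39 did. In NIH3T3 cells the peak was 13.0 kb wide with rank 52 in control (0.0571%, log2 5.69) and 14.2 kb with rank 5 with purmorphamine (0.00569%, log2 6.02), and 38 and 2 genes ranked better. The peak ranked better in the list without Shh in the limb and in the list with the agonist in NIH3T3 cells, and whether these steps exceed the replicate spread cannot be said.

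H3K4me2 at the same promoter came as several short peaks, of middling rank in WT and low rank in Shh-/- buds. WT buds had 3 peaks of 350 to 1000 bp, the best with rank 6440 (17.6%, log2 3.86), and 41.1% of genes with a promoter peak ranked better. Shh-/- buds had 4 peaks of 150 to 550 bp, the best with rank 23568 (61.2%, log2 2.89), and 93.0% of genes ranked better. Whether this step exceeds the replicate spread cannot be said. By the study's own comparison of the genotypes, nearly all H3K4me2 peaks were unchanged. The best H3K4me2 peaks of the window lay inside the gene, at 3.74 kb with rank 4810 in WT and at 5.61 kb with rank 10878 in Shh-/- buds. H3K27me3 had 1 peak of 100 bp at the promoter, with rank 19881 of 20846 and FDR 0.233. All 7 lists thus had a peak at the Prrx1 promoter, but 6 did with an FDR under 0.05 and 5 in the better-ranked 50% of every list. Across 21911 protein-coding genes the share with a promoter peak was 43.8% for WT and 40.9% for Shh-/- limb H3K27ac, 64.0% and 63.5% for H3K4me2, 13.3% for H3K27me3, and 53.0% and 53.1% in control and treated NIH3T3 cells.

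The 2 starts of Prrx2 differed from each other. At the upstream start the WT limb peak was 5.45 kb wide with rank 304 (0.612%, log2 6.45), and Shh-/- buds had 2 peaks, the better of 2100 bp with rank 359 (0.817%, log2 6.06). At the downstream start the WT peak was 1.40 kb wide with rank 9427 (19% of the list, log2 4.03) and the Shh-/- peak 2.55 kb with rank 811 (1.85%, log2 5.65), a rank percent 10.3 times lower in Shh-/- buds. A further Shh-/- only peak of 200 bp with rank 17049 lay at -0.710 kb. The downstream start was therefore marked in both genotypes but ranked far lower in WT, whereas the upstream start ranked alike. H3K4me2 was called at the downstream start alone, with rank 9938 in WT and 14728 in Shh-/- buds, and H3K27me3 at neither, so that 6 of the 7 lists had a peak at a Prrx2 promoter.

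In NIH3T3 cells both starts of Prrx2 ranked better with purmorphamine. The upstream start had rank 2265 in control (2.49%, log2 4.62) and rank 17 with purmorphamine (0.0194%, log2 5.85), a ratio of rank percents of 129. The downstream start had rank 5276 in control (5.80%, log2 4.56) and rank 341 with purmorphamine (0.388%, log2 5.43), a ratio of 14.9. With the agonist, 13 of 11636 genes with a promoter peak ranked better than Prrx2, against 1460 of 11613 without it. Peak widths differed little, with 1950 bp against 2150 bp at the upstream start and 1700 bp against 1750 bp at the downstream start.

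**Figure D2:**
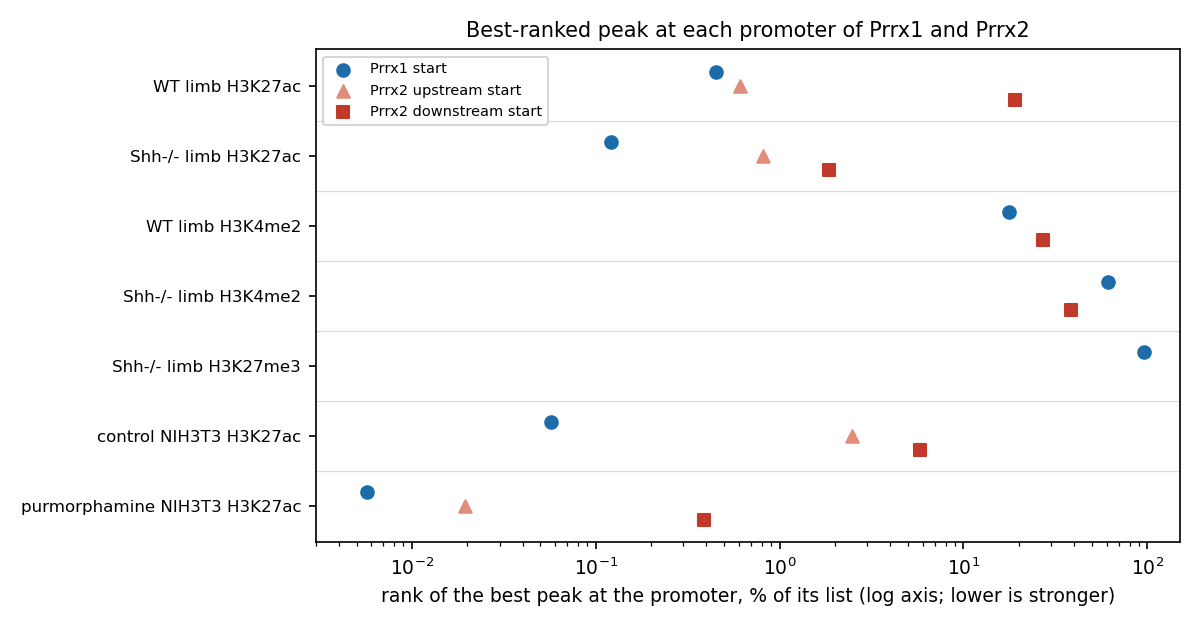
Best-ranked peak at the Prrx1 start and at the upstream and downstream starts of Prrx2 (symbols) in the 7 lists (rows), as rank in percent of the list on a log axis, where lower is stronger. Prrx1 lies below 1% in all 4 H3K27ac lists, and the upstream start of Prrx2 moves from 2.49% in control to 0.0194% in purmorphamine-treated NIH3T3 cells.

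Peaks found in 1 genotype but not the other were counted next, where 1 bp of overlap with any peak of the other genotype made a peak shared. Around Prrx1, 20 of 55 WT peaks were WT-only (36.4%, interval 24.9 to 49.6), against 48.5% of the whole WT list. In Shh-/- buds, 39 of 70 peaks were Shh-/- only (55.7%, 44.1 to 66.8), against 38.4% of that list, and this is the kind of count by which the gene was chosen. The lists were called separately, so a peak called in 1 genotype alone may still have signal in the other. Signal was not compared here. By the study's own comparison in merged peaks, most H3K27ac regions were present in both genotypes. In pooled tissue a true difference may reflect fewer cells with the mark or less of it per cell, and these cannot be told apart. Most of the unshared peaks were weak. The Shh-/- only peaks of the window had a median width of 150 bp, as did all Shh-/- only peaks. The median rank percent of the 39 was 66.3, close to the 69.6 of all Shh-/- only peaks. Among the best-ranked 10% was 1 of the 39, against 6 of all 16846. Of the 39, 24 lay within 1 kb of a WT peak (61.5%), near the 58.7% of all Shh-/- only peaks. An FDR over 0.05 was found for 4 of the 39 and for 1708 of all 16846. When peaks less than about 500 bp apart were also taken as shared, the Shh-/- only share of the window was 31.4% against 20.9% of the list, and the WT-only share was 9.09% against 30.5%.

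The Shh-/- only peaks lay on both sides of Prrx1. Downstream of the gene 21 of 32 Shh-/- peaks were unshared (65.6%, 48.3 to 79.6), upstream of it 16 of 33 (48.5%, 32.5 to 64.8), and in the gene body 2 of 5. The WT-only peaks were 7 of 19 downstream, 10 of 30 upstream and 3 of 6 in the gene body. The intervals of the downstream and upstream shares overlap in both genotypes. The best-ranked Shh-/- only peak was at 113 kb (chr1:163200350-163200849, intergenic), 500 bp wide with rank 3550 (8.08%, log2 4.66). The next were at -65.7 kb with rank 6752 (log2 4.08) and at 155 kb with rank 11770 (log2 3.56), both intergenic. The best WT-only peak was at 137 kb, between genes, 700 bp wide with rank 10420 (21.0%, log2 3.93), followed by peaks at 160 kb with rank 15682 and at -110 kb with rank 17933.

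The 5 Mb block by which Prrx1 was chosen is given for description only, since its share is the value that chose the gene. Of its 311 Shh-/- peaks 151 were Shh-/- only (48.6%, 43.1 to 54.1), the 6th highest share among 176 blocks of the genome with at least 100 peaks, whose median was 38.5% (21.7 to 55.5%). Without the Prrx1 window the share was 46.5%, over 241 peaks. Of its 258 WT peaks 78 were WT-only (30.2%), the lowest share of 217 blocks, and 28.6% without the window. At the edges of the window, the outermost Shh-/- peaks inside it were a Shh-/- only peak 2.86 kb from the upstream edge with rank 26708 and another 69.2 kb from the downstream edge with rank 24781. The nearest outside were Shh-/- only peaks 21.7 kb and 127 kb beyond those edges, with ranks 32229 and 25704.

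Around Prrx2 the WT-only share lay below that of the list and the Shh-/- only share near it. Of 60 WT peaks 19 were WT-only (31.7%, 21.3 to 44.2), below the 48.5% of the list, and of 64 Shh-/- peaks 25 were Shh-/- only (39.1%, 28.1 to 51.3), near the 38.4% of the list. In the gene body 10 of 22 Shh-/- peaks were unshared, against 3 of 18 WT peaks, and the intervals (26.9 to 65.3% and 5.84 to 39.2%) overlap. The best WT-only peak was at the promoter of Tor1b, which encodes a torsin ATPase of the endoplasmic reticulum, at 108 kb with rank 10825 (log2 3.89). It was followed by peaks at 25.2 kb in an intron of Prrx2 with rank 21658 and at -205 kb with rank 21698. The best Shh-/- only peaks were at -120 kb with rank 12974 (log2 3.47), at 5.96 kb inside Prrx2 with rank 16355, and at -0.710 kb, named above. None of these reached the best-ranked 20 percent of its list.

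**Figure D3:**
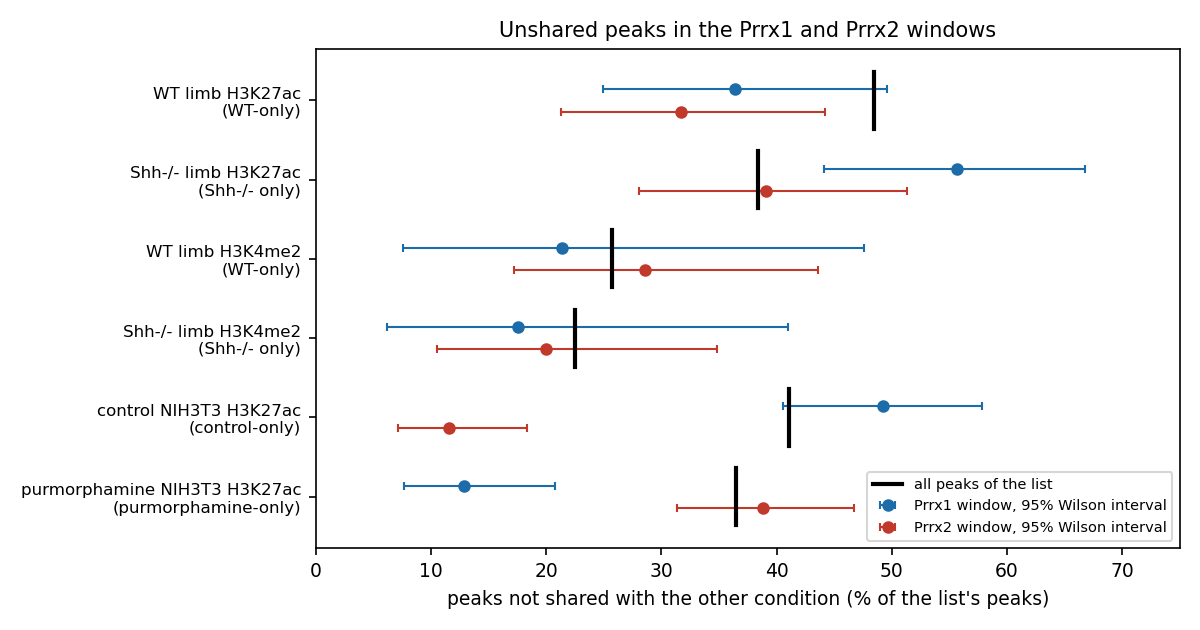
Peaks not shared with the other condition, in percent of each list's peaks, in the Prrx1 (blue) and Prrx2 (red) windows with 95% Wilson intervals that cover counting only; black bars are the share over the whole list. The Prrx1 window lies at 55.7% against 38.4% for Shh-/- limb H3K27ac, and the windows part in NIH3T3 cells, with control-only shares of 49.2% and 11.6%.

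Limb H3K4me2 was mostly shared around both genes. Around Prrx1, 3 of 14 WT peaks were WT-only (21.4%, 7.57 to 47.6), against 25.7% of the list, and 3 of 17 Shh-/- peaks were Shh-/- only (17.6%, 6.19 to 41.0), against 22.5%. Around Prrx2 the counts were 12 of 42 (28.6%, 17.2 to 43.6) and 8 of 40 (20.0%, up to 34.8). All 4 intervals hold the share of the list. The best unshared peaks were weak, at -131 kb with rank 27588 in WT and at -130 kb with rank 23101 in Shh-/- buds for Prrx1, and at -119 kb with rank 19753 and -86.2 kb with rank 13108 for Prrx2. The remaining named ones had ranks of 31574 and 35093 in WT and 29373 and 36328 in Shh-/- buds for Prrx1, and of 21532 and 23691 in WT and 19894 and 21472 in Shh-/- buds for Prrx2.

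Unshared H3K27ac peaks around Prrx1 lay outside H3K4me2 peaks. None of the 39 Shh-/- only peaks overlapped a Shh-/- H3K4me2 peak (interval up to 8.97%), against 11.9% of all Shh-/- only peaks, and none of the 20 WT-only peaks overlapped a WT H3K4me2 peak (up to 16.1%), against 16.7%. Of the shared H3K27ac peaks, those that overlapped H3K4me2 were 5 of 35 in WT (14.3%, 6.26 to 29.4) against 46.5%, and 5 of 31 in Shh-/- (16.1%, 7.09 to 32.6) against 43.7%. Around Prrx2 the shared counts were 14 of 41 in WT (34.1%, 21.6 to 49.5) and 17 of 39 in Shh-/- (43.6%, 29.3 to 59.0). The unshared counts were 5 of 19 (26.3%, 11.8 to 48.8) and 1 of 25 (4.00%, 0.710 to 19.5). Few H3K27ac peaks of the Prrx1 window thus overlapped H3K4me2 in either class and genotype, and the Prrx2 intervals hold the shares of the lists. The H3K27ac peak at the Prrx1 promoter alone overlapped 8 of the 14 H3K4me2 peaks in WT and 11 of the 17 in Shh-/- buds.

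Many limb peaks of both windows were also acetylated in NIH3T3 cells. Of the Shh-/- only peaks, 22 of 39 around Prrx1 (56.4%, 41.0 to 70.7) and 17 of 25 around Prrx2 (68.0%, 48.4 to 82.8) overlapped a control NIH3T3 peak, against 22.8% of all Shh-/- only peaks. Of the WT-only peaks, 9 of 20 (45.0%, 25.8 to 65.8) and 14 of 19 (73.7%, 51.2 to 88.2) did, against 24.2%. Shared peaks overlapped in 20 of 35 (57.1%, 40.9 to 72.0) and 36 of 41 (87.8%, 74.5 to 94.7) for WT, against 51.3%. For Shh-/- the shared counts were 18 of 31 (58.1%, 40.8 to 73.6) and 34 of 39 (87.2%, 73.3 to 94.4), also against 51.3%. NIH3T3 peaks cover 24.0% and 26.6% of the windows, far more than a median gene window (2.77%), and their part in these overlaps was not tested.

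**Figure D4:**
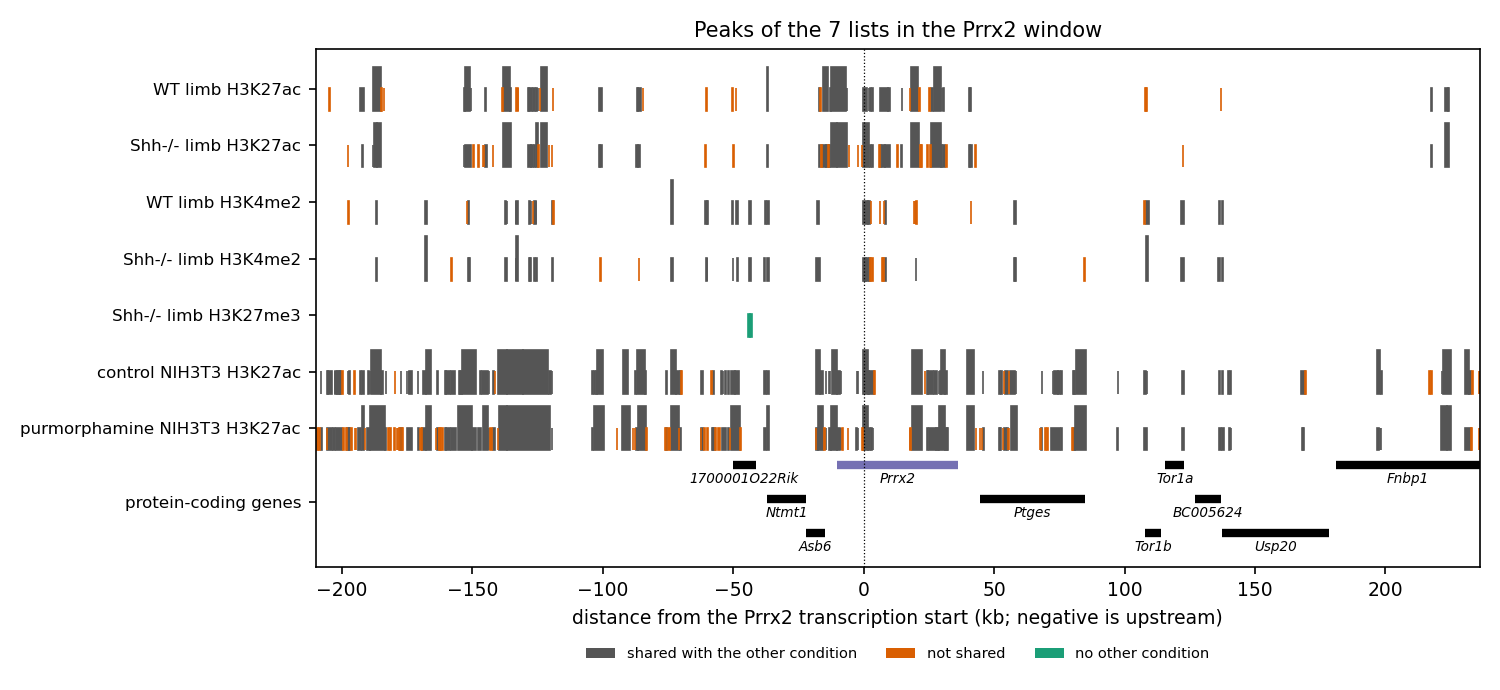
Peaks of the 7 lists (rows) in the Prrx2 window by distance from the downstream Prrx2 start in kb, drawn as for Prrx1, with protein-coding genes in the lowest row. Purmorphamine-treated cells have 59 orange peaks against 15 in control, and limb H3K27ac peaks are few over Tor1b, Tor1a and Usp20.

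Regions acetylated in both genotypes changed rank in both directions. Overlapping peaks of the WT and Shh-/- lists were joined, which gave 24 regions called in both lists around Prrx1 and 29 around Prrx2. The rank percent was better in Shh-/- buds in 11 of 24 (45.8%, 27.9 to 64.9) and in 12 of 29 (41.4%, 25.5 to 59.3), against 44.2% of all such regions. Around Prrx1 the widest separation towards Shh-/- was at 123 kb, with WT rank 39727 and Shh-/- rank 3858, and beside it at 122 kb, with ranks 9740 and 1488. The broad region at -62.4 kb, whose centre is shown above, was 5 WT peaks with best rank 6252 (log2 4.43) and 1 Shh-/- peak of 6050 bp with rank 675 (log2 5.74), a rank percent 8.19 times lower. In the other direction the region at 74.3 kb had WT rank 7039 and Shh-/- rank 32996. The other broad upstream region, at -43.7 kb, ranked 1393 in WT and 1487 in Shh-/- buds and so held its place. These regions were picked out after their values were seen.

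Around Prrx2 some of the strongest regions held their place and others did not. The region at -187 kb, shown above, ranked 295 in WT and 472 in Shh-/- buds, and that at 19.6 kb, inside Prrx2, ranked 356 and 327. The region at -152 kb ranked 1419 in WT (2.86%, log2 5.65) and 4655 in Shh-/- buds (10.6%, log2 4.41), a rank percent 3.71 times higher without Shh. Apart from the downstream start, the region at 224 kb, in an intron of Fnbp1, ranked better in Shh-/- buds (9472 in WT and 1332 in Shh-/-). The promoter of Ntmt1, which encodes a methyltransferase of protein N-termini, ranked better in WT (2995 and 21587). H3K4me2 regions called in both genotypes ranked better in Shh-/- buds in 3 of 10 around Prrx1 (30.0%, 10.8 to 60.3) and in 14 of 29 around Prrx2 (48.3%, 31.4 to 65.6), against 49.9% of all. The best H3K4me2 peaks of the Prrx2 window were at -73.4 kb in WT with rank 3351 and at -168 kb in Shh-/- buds with rank 1649.

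In NIH3T3 cells the windows parted. Around Prrx1, 62 of 126 control peaks were control-only (49.2%, 40.6 to 57.8), against 41.1% of the list, and 13 of 101 purmorphamine peaks were purmorphamine-only (12.9%, 7.68 to 20.8), against 36.5%. Around Prrx2 the counts were 15 of 129 control-only (11.6%, 7.17 to 18.3) and 59 of 152 purmorphamine-only (38.8%, 31.4 to 46.7). Around Prrx1 the purmorphamine interval, and around Prrx2 the control interval, lay below the share of the list. The control interval around Prrx1 and the purmorphamine interval around Prrx2 hold the share of their list. Downstream of Prrx1, 41 of 60 control peaks were control-only (68.3%, 55.8 to 78.7) and 1 of 33 purmorphamine peaks purmorphamine-only (3.03%, 0.537 to 15.3). Upstream of Prrx2, 41 of 91 purmorphamine peaks were unshared (45.1%, 35.2 to 55.3) and 6 of 75 control peaks (8.00%, 3.72 to 16.4). The purmorphamine-only share around Prrx2 depended on how neighbouring peaks were joined. It was 15.8% when gaps up to 500 bp were allowed, against 24.5% of the list, and 10.3% with peaks within 1 kb merged, against 27.4%.

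The unshared NIH3T3 peaks were of middling to low rank. Around Prrx1 the best control-only peaks were at 190 kb (rank 25817), 90.6 kb (1900 bp wide, rank 25943) and 149 kb (rank 30041). The best purmorphamine-only peaks there were at -182 kb (rank 27554), -51.3 kb (rank 44788) and -13.9 kb (rank 46186). Around Prrx2 the best control-only peak was at 233 kb (rank 24856), followed by peaks with ranks 41903 and 51256, and the best purmorphamine-only peaks were at -61.1 kb (rank 29560), -143 kb (rank 32819) and -76.0 kb (rank 34780). None of the peaks named here was among the best-ranked 10% of its list. Over the whole lists, 31 of 37405 control-only and 121 of 32020 purmorphamine-only peaks were. Differences in presence between treated and control cells near these genes lay in weak peaks, as they mostly did over the whole lists. For the strong peaks the differences lay in rank.

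Regions called in both NIH3T3 lists ranked better with purmorphamine in 20 of 55 around Prrx1 (36.4%, 24.9 to 49.6) and in 56 of 81 around Prrx2 (69.1%, 58.4 to 78.1), against 46.6% of all such regions. At least 2-fold in rank percent, 3 regions around Prrx1 favoured purmorphamine and 12 control, and around Prrx2 the counts were 21 and 7. No 2-fold share over all such regions stands beside these counts, so they are given as a description. Beyond the promoter, strong regions of Prrx1 ranked better in control, with control rank 534 and purmorphamine rank 2175 at -46.0 kb and ranks 1904 and 10120 at -67.8 kb. These overlap the limb regions at -43.7 and -62.4 kb in part. The promoter region itself went the other way. Around Prrx2 the region at -167 kb, in an intron of the long noncoding gene 9330198N18Rik, had control rank 3795 and purmorphamine rank 277. The region at -128 kb had ranks 370 and 93, with 16450 bp covered by 3 peaks in control and by 1 peak with purmorphamine. Other strong regions ranked better in control, at 20.5 kb inside Prrx2 (control rank 1175, purmorphamine rank 2730) and at 223 kb (982 and 2304). The best control peak of the window, at -138 kb, had rank 353 and rank 489 with purmorphamine.

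**Figure D5:**
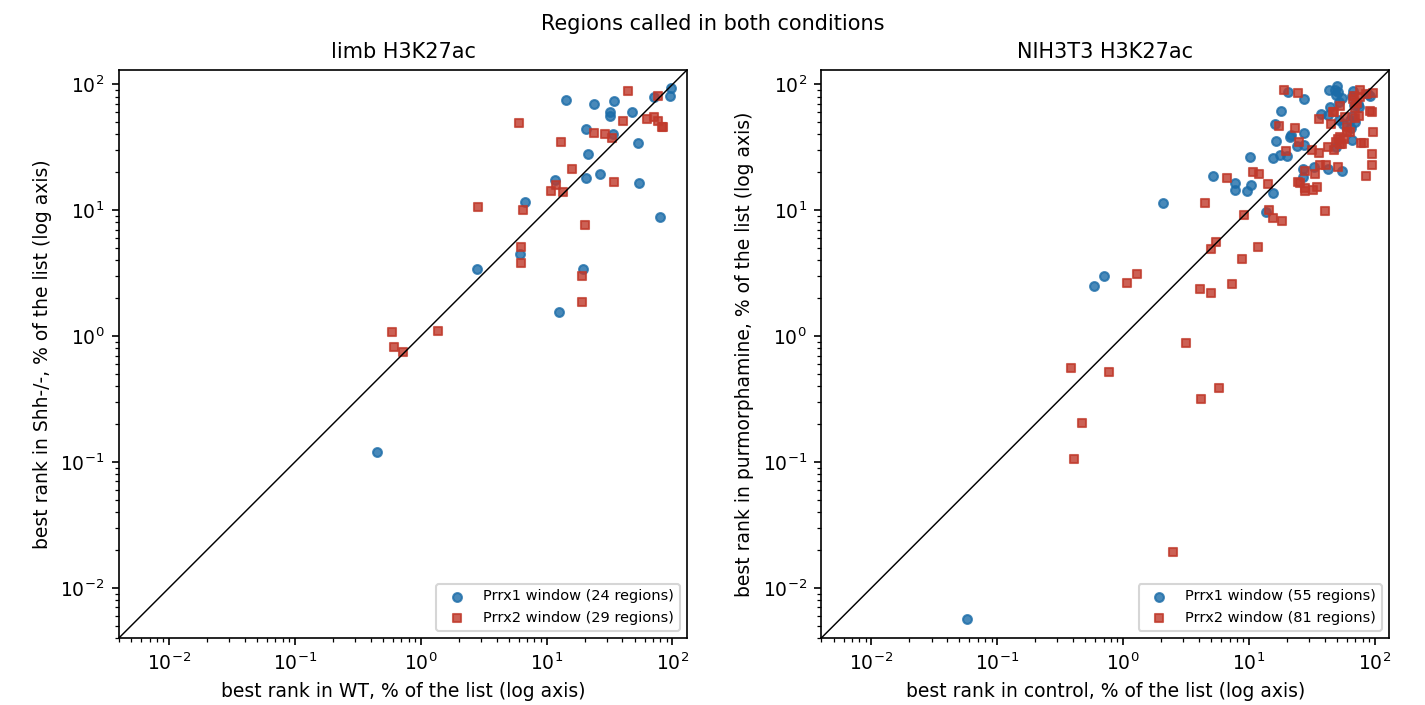
Regions called in both conditions, limb H3K27ac on the left and NIH3T3 H3K27ac on the right, each point placed by its best rank in percent of the list in either condition on log axes, with blue circles for Prrx1 and red squares for Prrx2. Points under the diagonal ranked better in Shh-/- buds or with purmorphamine, 11 of 24 and 12 of 29 in the limb and 20 of 55 and 56 of 81 in NIH3T3 cells.

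Neighbouring genes carried marks of their own. The Prrx1 window overlaps Gorab, which encodes a Golgi protein, and Mroh9. Gorab had a promoter peak in 6 lists, all but H3K27me3, with H3K27ac rank 3041 in WT and 1959 in Shh-/- buds, and Mroh9 had none. By nearest start, 9 of the 55 WT and 16 of the 70 Shh-/- limb H3K27ac peaks belonged to Prrx1, 29 and 29 to Gorab and 17 and 25 to Mroh9. Of the WT peaks 47 of 55 and of the Shh-/- peaks 64 of 70 had their centre between genes. The nearest start is a distance and not an assignment. The Prrx2 window overlaps 9 other protein-coding genes. Promoter peaks were present in 6 lists for Ntmt1, in 5 for Tor1b, Tor1a, BC005624 and Usp20 (a deubiquitinase), in 4 for Asb6 (an adaptor of a ubiquitin ligase), Ptges (a prostaglandin E synthase) and Fnbp1 (a membrane-binding F-BAR protein), and in 3 for 1700001O22Rik. Of the 60 WT and 64 Shh-/- limb H3K27ac peaks, 16 and 20 were nearest to a start of Prrx2.

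Other homeobox genes of the paired-like class seldom shared the acetylation of Prrx1 and Prrx2. On a list of 22, 6 had a WT limb H3K27ac peak at a promoter, Alx4 and Shox2 among them, and 7 a Shh-/- peak, while 18 had an H3K27me3 peak. Over all protein-coding genes the shares were 43.8% and 40.9% for limb H3K27ac and 13.3% for H3K27me3. Peaks of any FDR were counted. For H3K4me2 the count was 14 in WT and 14 in Shh-/- buds, near the shares of all genes (64.0% and 63.5%). In NIH3T3 cells 1 gene, Shox2, had a peak in either condition, against 53.0% of all genes in control and 53.1% in treated cells. One gene of the list, Prrxl1 in the annotation, was matched through its synonym Drgx. Of 19 transcription factors of limb mesenchyme, such as Tbx5 (forelimb initiation), Lmx1b (dorsal pattern) and Hand2 (posterior identity), all 19 had H3K27ac and H3K4me2 peaks at a promoter in WT and in Shh-/- buds, and 13 had an H3K27me3 peak. In NIH3T3 cells 12 of the 19 did, in control and with purmorphamine, and Tbx5, Msx1, Msx2, Lhx2, Lmx1b, Hand2 and Tbx2 did not. Prrx1 and Prrx2 were thus marked in NIH3T3 cells where those limb genes were not called.

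The genes most like each member were sought by the percent of the window covered in the 7 lists, each list scaled to an SD of 1 over genes, with the distance over the 7 values. For Prrx1 they were Zfp36l1 (an RNA-binding protein of mRNA decay) at 2.18, Tirap (a Toll-like receptor adaptor) next and Mta3 (a NuRD complex subunit) at 2.22. For Prrx2 they were Top2a (topoisomerase II alpha) at 2.63, Ifitm10 at 2.71 and Haao (an enzyme of tryptophan breakdown) at 3.30. Prrx1 and Prrx2 were 4.36 apart, and 49 genes lay nearer to Prrx1 and 18 nearer to Prrx2 than the members to each other. Zfp36l1, for example, had 6.84% and 7.46% limb H3K27ac cover in WT and Shh-/- buds and 19.9% in control NIH3T3 cells.

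Motifs were searched in the 300 bp at the centre of every limb H3K27ac peak, on both strands. GACCACCCA was found in 0 of 55 WT and 0 of 70 Shh-/- peaks around Prrx1 (intervals up to 6.53 and 5.20%) and in 0 of 60 and 0 of 64 around Prrx2 (up to 6.02 and 5.66%), where 0.252% and 0.171% of the lists hold it. TAATTA was found in 8 of 55 WT peaks around Prrx1 (14.5%, 7.56 to 26.2) and in 8 of 70 Shh-/- peaks (11.4%, 5.91 to 21.0), and in 0 of 60 (up to 6.02%) and 1 of 64 (1.56%, 0.276 to 8.33) around Prrx2, against 8.62% and 8.27% of the lists. TGACAG was found in 7 of 55 and 10 of 70 peaks around Prrx1 and in 7 of 60 and 16 of 64 around Prrx2, against 17.0% and 16.7%. CATCTG was found in 9 of 55 and 18 of 70 around Prrx1 and in 12 of 60 and 15 of 64 around Prrx2, against 19.5% and 19.3%. Among 32851 RefSeq promoters of mm10, which hold 250 bases before and 50 after a start, 0.253% hold GACCACCCA, 5.29% TAATTA, 19.2% TGACAG and 17.2% CATCTG. The RefSeq promoter of Prrx1 held TAATTA alone, and that of Prrx2, with a GC content of 70.3% against a median of 52.7%, held none of the 4.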

How the data were processed

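The 7 lists of ChIP-seq peaks were of forelimb buds (H3K27ac and H3K4me2 in both genotypes, H3K27me3 without Shh alone) and of NIH3T3 cells (H3K27ac). Reads had been aligned with Bowtie2 2.2.5 to mm10 (submitters' notes), and the authors called peaks with CisGenome against input from 2 replicates together. By the methods, limma was applied to read numbers in merged peaks, against input and between conditions, and no such values were used here. For each peak the authors deposited its q-value (false discovery rate), a score that orders the ranks, the highest log2 ratio over input, and the −log10 of a Poisson p-value, which ends at 100 in the files. These values were used only to rank, filter and describe peaks within a list. The label's H3K27me3 antibody differs from that in the methods.

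Groups came from the sample labels. The members and gene lists were chosen with earlier results of these data known. Gene positions came from the basic GENCODE vM21 annotation, and promoters ran from 2 kb before to 1 kb after a start. Starts of peaks are multiples of 50, so whether coordinates count from 0 or 1 cannot be read from them, and sequences may be shifted by 1 base. Named were all promoter peaks, the best-ranked peak per list, the 3 best-ranked unshared peaks per direction, the widest H3K27me3 peak, genes in the windows and the 3 genes most like each member. Regions called in both conditions were singled out after their values were seen. Overlaps were tested on simulated data and checked with bedtools 2.31.1, which gave the same number of shared peaks in 6 of 6 lists. Python 3.11.15, pandas 2.3.3 and numpy 2.4.6 were used. The methods state a minimum depth only, and read depth per library was not used here. The alternatives were a 50% overlap, a gap of 500 bp, the better-ranked 50%, an FDR under 0.05, lists of equal size, peaks merged within 1 kb, flanks of 100 or 50 kb and a promoter of 500 bp on either side. Some named genes and 1 peak sequence are not reported here.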

Additional observations from a re-analysis of the deposited data

How the results depend on the processing

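No paired analysis was possible because each list was called from both replicates together, so that no list carries a replicate number, and leaving out a replicate was not possible for the same reason. Of 118 values recomputed under the alternatives, 82 stayed close to the value reported and 36 did not, and the cause was not tested. Close means within the counting interval for a share and within 1.5 times for a count of peaks or lists. Against the list's own share, the Shh-/- only share around Prrx1, both NIH3T3 shares around Prrx1 and the control-only and WT-only shares around Prrx2 lay on the same side in 6 of 6 settings. The purmorphamine-only share around Prrx2 did so in 4 of 6, and the Shh-/- only share there in 2 of 6. The narrower flanks were not among these 6 settings. With 50 kb flanks the control-only share around Prrx1 lay on the other side, at 38.9% against 41.1% of the list. The Shh-/- only share around Prrx1 is the kind of value by which the gene was chosen, and every setting reuses the same lists. Its side is therefore given as a description, and nothing is drawn from it.

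When gaps up to 500 bp were allowed, the shares around Prrx1 were 9.09% WT-only and 31.4% Shh-/- only for H3K27ac, 7.14% WT-only for H3K4me2, 5.94% purmorphamine-only and 37.3% control-only. Around Prrx2 they were 15.0% WT-only and 20.3% Shh-/- only for H3K27ac, 11.9% WT-only for H3K4me2, 15.8% purmorphamine-only and 2.33% control-only, and in the chromosome 1 block 27.3% Shh-/- only. With a required overlap of 50% of the peak they were 57.1% and 47.1% for WT-only and Shh-/- only H3K4me2 and 68.3% control-only around Prrx1, 45.0% WT-only H3K27ac, 57.9% purmorphamine-only and 20.9% control-only around Prrx2, and 61.4% in the block. In the better-ranked 50% of every list they were 83.3% (5 of 6 peaks) and 50.0% (1 of 2) for WT-only and Shh-/- only H3K4me2 and 37.7% control-only around Prrx1, 16.1% and 27% for WT-only and Shh-/- only H3K27ac around Prrx2, and 36.8% in the block. With peaks within 1 kb merged they were 20.0% and 41.2% for WT-only and Shh-/- only H3K27ac, 42.9% Shh-/- only H3K4me2 and 39.0% control-only around Prrx1, 12.5% WT-only H3K4me2, 10.3% purmorphamine-only and 5.88% control-only around Prrx2, and 35.4% in the block. With 50 kb flanks the control-only share around Prrx1 was 38.9%, below the 41.1% of the list. The count of H3K27me3 peaks around Prrx1 was 0 in the better-ranked 50% and 0 with an FDR under 0.05, and around Prrx2 it was 1 after merging. The WT-only share around Prrx1 was 41.4% in the better-ranked 50% of the lists, against 40.3% of the whole list so limited.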

Other observations

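The 5 Mb blocks that hold the genes gave further values. In the chromosome 2 block of 30 to 35 Mb, with Prrx2, 84 of 273 Shh-/- limb H3K27ac peaks were Shh-/- only (30.8%, 25.6 to 36.5) and 126 of 308 WT peaks were WT-only (40.9%, 35.6 to 46.5), where the median block had 38.5% and 47.3%. Outside the Prrx2 window the shares were 28.2% and 43.1%. In NIH3T3 cells the chromosome 1 block had 220 of 457 control-only peaks (48.1%, 43.6 to 52.7) and 111 of 391 purmorphamine-only peaks (28.4%, 24.1 to 33.1), and the chromosome 2 block had 187 of 552 (33.9%, 30.1 to 37.9) and 148 of 490 (30.2%, 26.3 to 34.4), where the median block had 41.6% and 34.2%.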
